A study of Mus musculus with 18 samples.

Results

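Interferon-stimulated genes and sensors of foreign nucleic acid were followed through RNA sequencing of 2 mouse lines of lung cancer with an altered kinase gene Dstyk. The 43 genes were given as a list of symbols, all 43 were found, and they are 43 of the 36047 genes with a listed transcript. They comprise 4 interferon receptor chains, 4 transcription factors, 9 nucleic acid sensors, 15 antiviral effectors, 5 interferon-inducible GTPases and 6 enzymes of ubiquitin, ISG15 and ADP-ribose transfer. Adar, the gene of an enzyme that edits double-stranded RNA rather than a sensor, is counted among the 9 sensors throughout. The study held 18 libraries in 6 groups of 3. LLC, the Lewis lung carcinoma line, has the strain label C57BL/6 and the source label lung adenocarcinoma. UN-SCC679 has the strain label A/J and is labelled as a squamous lung carcinoma. Both lines carried the vector TPLKO, empty or with the hairpin construct sh3 directed at Dstyk, and all 4 of these groups, the empty ones included, were treated with doxycycline. UN-SCC679 also carried the vector pLENTI6, empty or with a wild-type DSTYK construct for overexpression, with the treatment given as N.A. The knockdown rests on 1 hairpin construct, the line and the mouse strain cannot be told apart, and nothing in the labels says that the 3 replicates of a group were separate cultures, so that the spread behind each p-value may be technical.

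Type I interferons bind the receptor chains IFNAR1 and IFNAR2, and interferon gamma binds IFNGR1 and IFNGR2. The type I receptor acts through a complex that includes STAT2 and IRF9 and binds the interferon-stimulated response element (ISRE), while the response to interferon gamma runs through the gamma-activated site (GAS). The genes so induced include sensors such as RIG-I (Ddx58) and MDA5 (Ifih1), which detect foreign or misplaced RNA and feed back into interferon production, and effectors that block viral replication. Tumour cell lines are known to keep different basal levels of these genes.

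Promoters are shown for members on which the results turn. The letters are from the RefSeq promoter table on GRCm38.p6, the 250 bases before the annotated start, written 5′ to 3′ on the strand of the gene. Capitals mark matches to GAAANNGAAA on either strand (TTTCNNTTTC when the match is on the other strand), the core of the ISRE, and in Irf1 a match to TTCNNNGAA, the core of the GAS. Isg15, Ifit1, Rsad2 and Bst2 are effectors with the ISRE-like letters close to the start, Stat2 and Gbp2 changed in LLC, and Irf1 is shown for the GAS-like letters. Isg15 lies at chr4:156200819-156201068 on the minus strand, Ifit1 at chr19:34640639-34640888 on the plus strand, Rsad2 at chr12:26456453-26456702 on the minus strand, Bst2 at chr8:71537473-71537722 on the minus strand, Stat2 at chr10:128270248-128270497 on the plus strand, Gbp2 at chr3:142620413-142620662 on the plus strand and Irf1 at chr11:53769764-53770013 on the plus strand.
Isg15: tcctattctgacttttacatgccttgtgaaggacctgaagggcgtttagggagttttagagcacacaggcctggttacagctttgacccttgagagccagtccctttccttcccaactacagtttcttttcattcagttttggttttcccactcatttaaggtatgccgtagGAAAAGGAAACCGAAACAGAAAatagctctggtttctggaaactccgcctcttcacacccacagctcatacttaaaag
Ifit1: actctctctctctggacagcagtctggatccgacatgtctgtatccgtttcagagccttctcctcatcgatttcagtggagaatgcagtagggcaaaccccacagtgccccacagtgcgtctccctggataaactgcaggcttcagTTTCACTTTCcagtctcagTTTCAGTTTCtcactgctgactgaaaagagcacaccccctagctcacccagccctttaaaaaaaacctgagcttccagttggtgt
Rsad2: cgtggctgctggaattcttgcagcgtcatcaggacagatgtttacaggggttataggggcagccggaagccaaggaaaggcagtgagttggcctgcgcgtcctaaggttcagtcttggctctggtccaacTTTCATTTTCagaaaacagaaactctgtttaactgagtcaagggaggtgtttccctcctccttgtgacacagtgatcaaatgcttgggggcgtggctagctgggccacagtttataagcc
Bst2: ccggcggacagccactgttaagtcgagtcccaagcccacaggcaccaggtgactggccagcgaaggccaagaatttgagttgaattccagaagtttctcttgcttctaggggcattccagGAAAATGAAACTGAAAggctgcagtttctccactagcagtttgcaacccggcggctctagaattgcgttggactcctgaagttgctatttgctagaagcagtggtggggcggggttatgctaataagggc
Stat2: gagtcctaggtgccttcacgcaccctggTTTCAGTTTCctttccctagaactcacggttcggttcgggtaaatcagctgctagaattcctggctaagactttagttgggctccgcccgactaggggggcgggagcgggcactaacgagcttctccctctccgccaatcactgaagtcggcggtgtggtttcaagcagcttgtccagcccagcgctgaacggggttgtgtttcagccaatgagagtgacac
Gbp2: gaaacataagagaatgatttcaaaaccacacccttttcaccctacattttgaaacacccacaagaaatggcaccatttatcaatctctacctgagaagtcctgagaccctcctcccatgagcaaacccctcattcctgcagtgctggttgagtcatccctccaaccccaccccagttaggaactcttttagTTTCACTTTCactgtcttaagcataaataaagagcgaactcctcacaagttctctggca
Irf1: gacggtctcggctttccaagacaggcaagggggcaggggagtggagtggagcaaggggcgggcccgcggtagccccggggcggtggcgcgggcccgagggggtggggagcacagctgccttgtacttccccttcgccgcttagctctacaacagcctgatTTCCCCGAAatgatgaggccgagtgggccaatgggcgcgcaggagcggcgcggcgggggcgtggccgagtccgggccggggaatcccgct

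Of the 43 members, 35 had a promoter in that table. Searched on both strands over 300 bases (250 before and 50 after the start), the ISRE-like letters were present in 16 of these 35 genes (45.7%), against 3.99% of the 27025 genes in the table and 3.44% of its 32851 promoters. GAS-like letters, which read the same on both strands, were present in 12 of 35 members (34.3%), against 9.55% of all genes and 8.30% of all promoters. A match describes the letters in this window and is no measurement of binding. The 3 matches in Isg15 and the pair in Bst2 overlap one another, and the pair in Ifit1 stands apart.

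**Figure D1:**
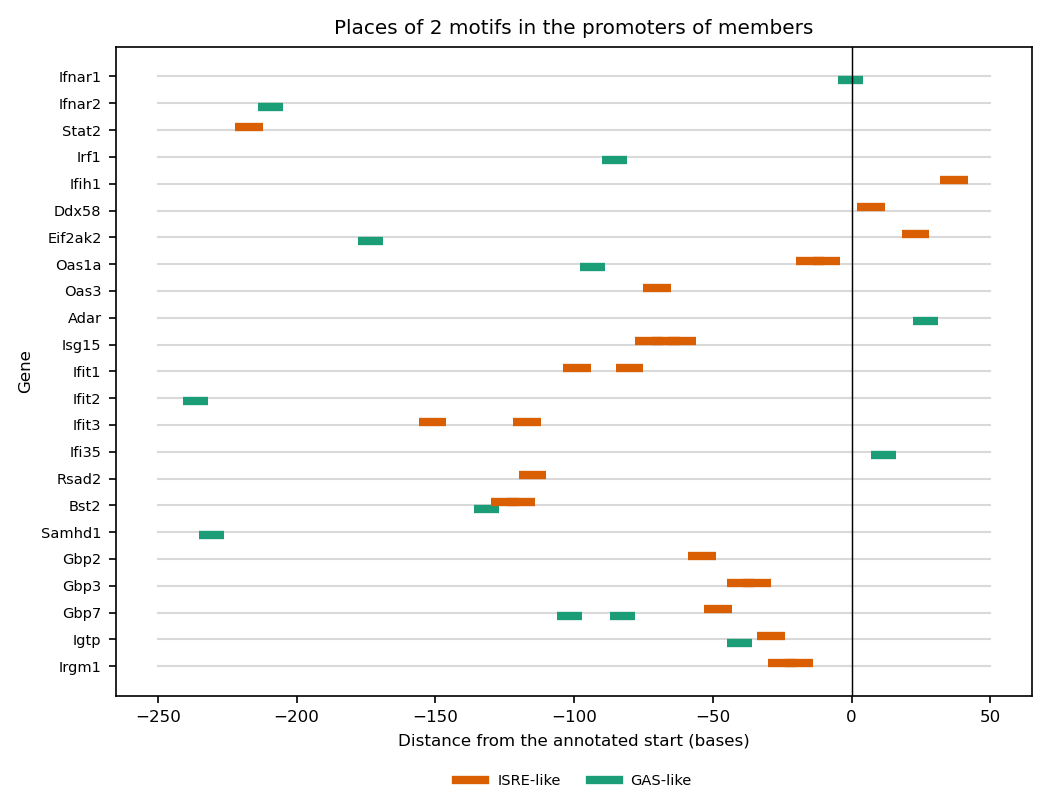
Places of the ISRE-like (orange) and GAS-like (green) letters in the promoters of members that hold either, by distance from the annotated start in bases. Each row is 1 gene and the vertical line is the start, and 16 members hold the ISRE-like letters and 12 the GAS-like letters.

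Libraries held between 40525385 and 46528071 estimated counts. Dstyk itself went from 43.2, 41.0 and 45.3 CPM (counts scaled to library size) in empty LLC to 22.9, 24.1 and 22.7 CPM with sh3, from 36.6, 36.5 and 38.3 to 26.8, 26.8 and 25.3 CPM with sh3 in UN-SCC679, and from 29.0, 30.6 and 32.0 to 36.7, 36.9 and 38.0 CPM with the DSTYK construct, where reads of the construct and of the mouse gene were not told apart. For Dstyk each altered group was apart from its own empty group, as were 75.9%, 68.1% and 46% of all genes tested in these comparisons. Replicate 1 of the empty pLENTI6 group stood apart from the other libraries of its group (mean chi-square per gene of 12.2 and 13.8, against at most 5.04 for any other pair within a group), so calls that rest on it were repeated without it. Leukocyte markers summed to between 3.14 and 7.91 TPM (counts scaled to transcript length and library size) over the libraries, with Cd68 the largest part in each and the macrophage marker Adgre1 at 0 in every group. Markers of plasmacytoid dendritic cells, the professional interferon producers, summed to at most 0.285 TPM. In LLC 7 of 8 epithelial markers were under 1 TPM, and in UN-SCC679 Epcam, Cdh1, Krt5 and Dsg3 were near 0 while Krt8, Sox2, Pkp1 and Nkx2-1 were present, beside 3706 TPM of the collagen gene Col1a2 in the empty TPLKO group. The labelled carcinoma types therefore go with only part of their usual markers.

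Bst2, which encodes tetherin, a membrane protein that holds budding virus particles at the cell, was the most abundant member in UN-SCC679 (473 TPM with empty TPLKO), followed by Samhd1 (94.2 TPM), an enzyme that lowers the pool of deoxynucleotides. In LLC Samhd1 was the most abundant (69.0 TPM), followed by the large ubiquitin ligase gene Rnf213 (36.7 TPM). At the other end, Ifih1 had 2 counts summed over the 3 empty LLC libraries and 0 with sh3, Oas2 had 1 and 1, Mx2 had 2 and 5, and Ifit1 had 3 in the empty group. A group with 0 counts allows up to 3 counts, between 0.0221 and 0.0238 CPM here, for counting error only. The heat map of all members shows the sensors and GTPases darker in LLC than in UN-SCC679.

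**Figure D2:**
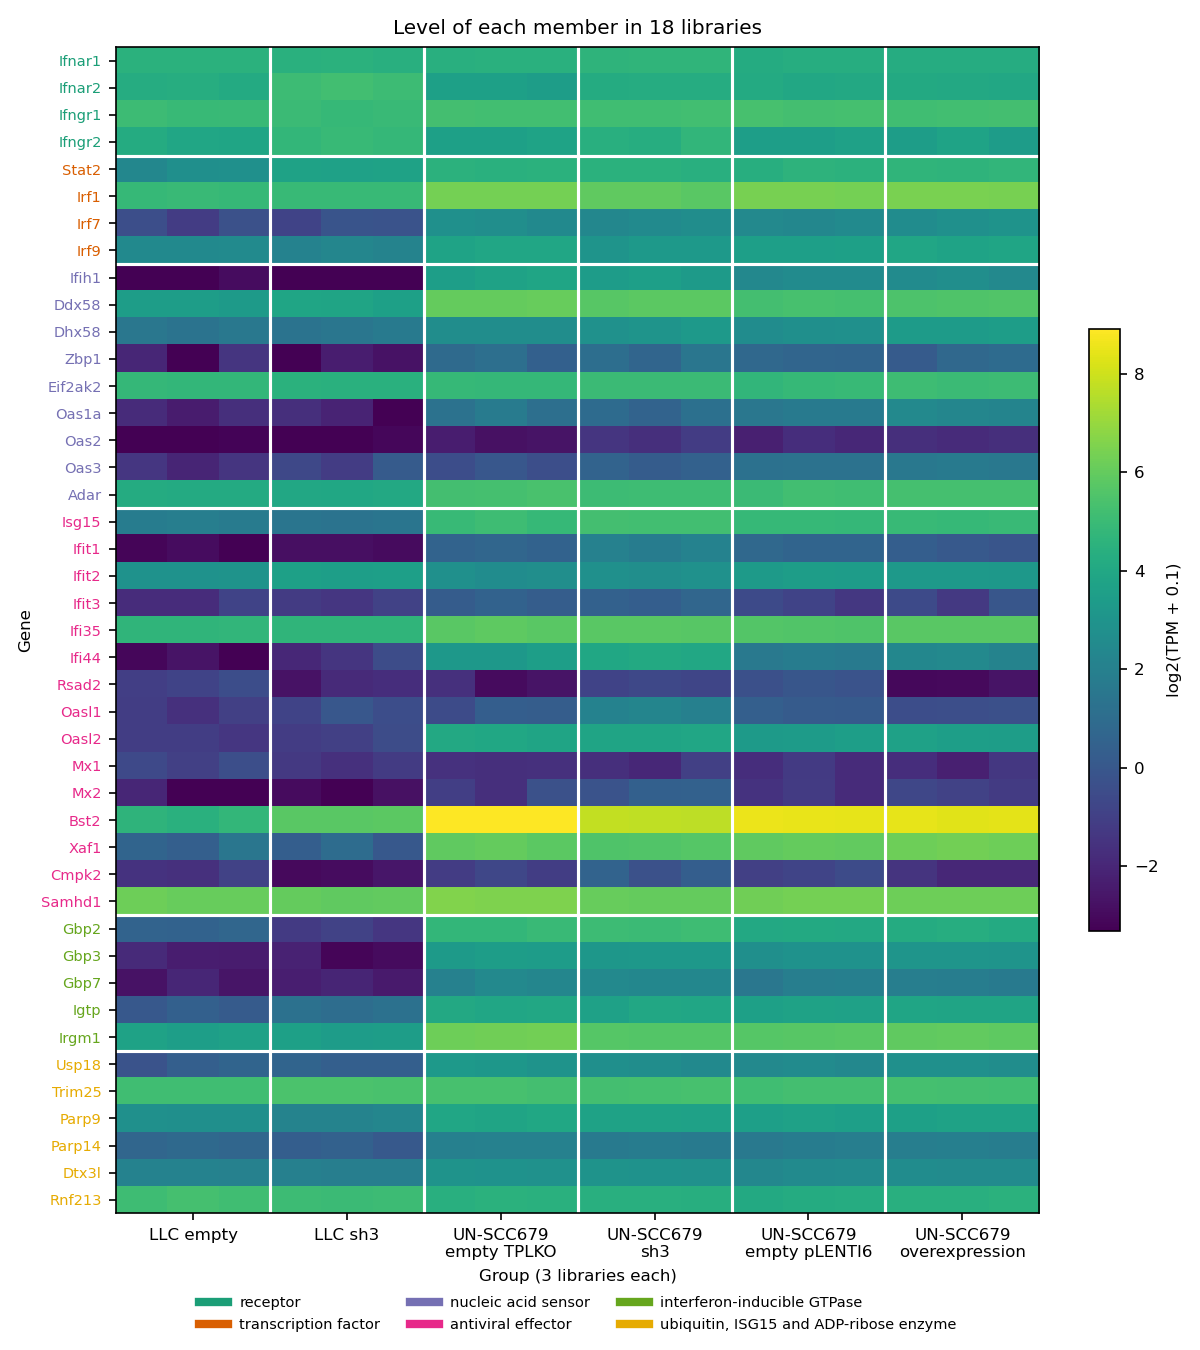
Level of each of the 43 members in each of the 18 libraries as log2(TPM + 0.1), with rows ordered and coloured by role and columns by group. Bst2 is brightest in UN-SCC679, and Ifih1, Oas2, Mx2 and Ifit1 are at or near 0 in LLC.

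With empty TPLKO and doxycycline, LLC held lower levels of most members than UN-SCC679. A gene was called changed at an adjusted p under 0.05 in edgeR's quasi-likelihood test with Benjamini-Hochberg adjustment over all tested genes, as in all comparisons here. Of 42 members tested, 35 were lower in LLC (83.3%, background 42%) and 6 were higher (14.3%, background 40.9%). Lower by at least 2-fold were 29 members (69.0%, background 20.7%). The libraries of the lines did not overlap for all 42 (background 84.2%). The median log2 difference was -1.92 for the members and -0.01 for all 14351 genes tested. All 5 GTPases (median log2 difference -4.27), all 8 tested sensors and all 4 transcription factors were lower in LLC, with 12 of 15 effectors and 5 of 6 enzymes. The sensor Eif2ak2 differed little (means of 67.2 CPM in LLC and 71.1 CPM in UN-SCC679). Its call was lost with a length offset, with limma on log2(TPM + 1) and without empty LLC replicate 2. Cmpk2, among the effectors, lost its call with these settings, with DESeq2, with a replicate block and without any 1 of 3 libraries. Receptor chains went otherwise, with 2 higher and 1 lower of 4. Summed fibroblast markers differed as well, between 18.5 and 20.3 TPM in LLC and between 3883 and 3994 TPM in UN-SCC679, and epithelial markers between 40.7 and 46.2 TPM and between 543 and 567 TPM, and their part in these differences was not tested. The sums hide single markers that went the other way. Of 5 fibroblast markers tested 3 were lower in LLC and 2 higher, and of 4 epithelial markers 3 were lower and 1 higher. In such bulk samples fewer cells of a kind and less RNA per cell cannot be told apart.

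Ifih1, the sensor of long double-stranded RNA, was at 23.3, 26.1 and 25.3 CPM in UN-SCC679 and at 0, 0 and 0.0477 CPM in LLC. That is 3136 counts against 2, a ratio of 1570 with a 95% exact counting interval from 436 to 13000. Ifit1, whose product binds viral RNA that lacks the host cap methylation, had 279 counts against 3, a ratio of 93.4 (interval 31.6 to 456). Mx2 had 58 against 2 counts (ratio 29.1, interval 7.71 to 246) and Oas2, which was too low for the test, 19 against 1 (ratio 19.1, interval 3.03 to 793). These genes had at most 3 counts in empty LLC. The lines came in separate deposited tables, and 480 transcripts with at least 5 counts in every TPLKO library of UN-SCC679 were at 0 in all 6 LLC libraries, against 232 the other way round. The 3 of these 480 that belong to members, Ifih1-201, Ifih1-202 and Ifih1-204, are all of Ifih1, so for this gene a difference between the lines and one between the tables cannot be told apart.

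Ifi44, an interferon-induced gene, was at 15.7, 15.9 and 17.8 CPM in UN-SCC679 and at 0.0443, 0.124 and 0 CPM in LLC (286-fold lower, log2 -8.16, SE 0.25, edgeR adjusted p = 3.26e-11). Gbp3, a guanylate-binding protein gene, was at 15.5, 16.03 and 16.9 CPM against 0.222, 0.149 and 0.143 CPM (92.6-fold lower, log2 -6.53, SE 0.14, edgeR adjusted p = 1.3e-12). Bst2 was 19.1-fold and Ddx58, the gene of RIG-I, 6.4-fold lower in LLC (edgeR adjusted p = 1.04e-14 and 2.02e-14). The GTPase genes Gbp2, Gbp7, Igtp and Irgm1 were lower by 19.3-fold, 41.2-fold, 14.8-fold and 6.16-fold.

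On the higher side in LLC were Ifnar2 (10.95, 11.02 and 10.3 CPM against 19.02, 20.1 and 18.5 CPM, 1.77-fold, edgeR adjusted p = 1.56e-07) and Rnf213 (162, 171.5 and 174 CPM against 293, 308 and 302 CPM, 1.76-fold, edgeR adjusted p = 6.72e-11). Smaller differences were found for Ifngr2 (1.22-fold, edgeR adjusted p = 0.0016) and for Ifit2 (1.20-fold, edgeR adjusted p = 0.00246), a relative of Ifit1 that binds AU-rich RNA. Both of these lie on chromosomes whose genes were higher in LLC as a whole, with a median log2 difference of 0.25 on chromosome 16 and 0.29 on chromosome 19. With each chromosome's median removed, Ifngr2 was no longer called (log2 0.04, adjusted p = 0.554) and Ifit2 turned (log2 -0.03, adjusted p = 0.679). Rsad2, chosen for mention after its values were seen because it lies under 1 CPM, was also higher in LLC (98 against 15 counts, 6.24-fold, edgeR adjusted p = 9.12e-05), as was Mx1 (2.21-fold, edgeR adjusted p = 0.004). Empty LLC was however below the empty pLENTI6 group of UN-SCC679 for Rsad2 (means of 0.769 and 1.68 CPM), Ifngr2 (16.4 and 18.4 CPM) and Ifit2 (17.3 and 21.4 CPM). By TPM the order of Ifngr2 was the other way round, with means of 15.8 in empty LLC and 11.9 in empty pLENTI6. Ifnar2, Rnf213 and Mx1 were higher in empty LLC than in either empty group. LLC was not tested against empty pLENTI6.

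Of the 16 members with ISRE-like letters 15 were lower and 1 higher in LLC (background 42% and 40.9%), with a median log2 difference of -3.53. Of the 19 without them 14 were lower and 4 higher, with a median of -0.86. The same split gave medians of 0.21 and -0.01 for sh3 in LLC, 0.07 and -0.01 for sh3 in UN-SCC679, 0.10 and 0.04 for the construct and -0.35 and -0.11 between the empty vectors. No test was made of this split in any comparison. Reads of the A/J line were assigned to transcripts of the C57BL/6 reference, and the part of strain sequence in these differences was not tested.

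In LLC the hairpin moved single members in both directions with no shift of the list. Of 35 members tested 10 were higher (28.6%, background 36.2%) and 12 lower (34.3%, background 36.4%). The median log2 change was 0.01, as over all 13767 genes tested (0.01), and groups did not overlap for 24 members (background 75.9%). Not tested for low counts were Ifih1, Zbp1, Oas1a, Oas2, Ifit1, Ifi44, Mx2 and Gbp3. Among enzymes 4 of 6 were lower and 1 higher, receptors had 2 higher of 4, sensors 2 higher and 2 lower of 5 tested, and effectors 3 higher and 4 lower of 12. Summed fibroblast markers went from between 18.5 and 20.3 to between 28.3 and 29.3 TPM, with 4 of the 6 called higher and 2 lower, and their part in these changes was not tested.

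Stat2, the transcription factor that completes the type I interferon complex, was at 10.6, 11.2 and 11.4 CPM in empty LLC and at 29.1, 27.1 and 26.8 CPM with sh3. It rose 2.51-fold (log2 1.33, SE 0.053, edgeR adjusted p = 1.38e-10), and the groups stood far apart. Its partner Irf9 went from 8.93, 7.96 and 9.64 to 6.84, 6.64 and 6.63 CPM, a fall of 1.32-fold (log2 -0.40, SE 0.086, edgeR adjusted p = 0.00109). So 2 genes of the same DNA-binding complex changed in opposite directions, again without overlap.

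Bst2 rose from 11.03, 9.58 and 12.3 to 24.4, 24.4 and 25.0 CPM (2.24-fold, log2 1.17, SE 0.073, edgeR adjusted p = 1e-08). Ifngr2, the signalling chain of the interferon gamma receptor, rose from 16.7, 16.7 and 15.8 to 30.3, 30.6 and 31.6 CPM (1.89-fold, log2 0.92, SE 0.042, edgeR adjusted p = 5.62e-10). Igtp, a GTPase gene induced by interferon gamma, rose from 1.11, 1.49 and 1.27 to 2.77, 2.39 and 2.76 CPM (2.06-fold, log2 1.04, SE 0.18, edgeR adjusted p = 2.05e-04). In each of these every sh3 library was above every empty library.

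Oas3, which makes the 2-5A signal that activates RNase L, was at 0.731, 0.398 and 0.621 CPM in empty LLC and at 1.33, 1.01 and 2.17 CPM with sh3 (2.56-fold, log2 1.36, SE 0.34, edgeR adjusted p = 0.0028). The level is low and the third sh3 library was the highest. On log2(TPM + 1) values limma did not call it (adjusted p = 0.0503).

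Gbp2, which targets vacuoles of intracellular pathogens, fell from 2.10, 2.02 and 2.34 to 0.443, 0.668 and 0.272 CPM (4.62-fold, log2 -2.21, SE 0.29, edgeR adjusted p = 1.77e-05). Parp9 and Parp14, ADP-ribosyltransferase genes, fell together, Parp9 from 11.7, 12.4 and 11.7 to 7.70, 8.04 and 8.62 CPM (1.47-fold, edgeR adjusted p = 1.29e-05) and Parp14 from 6.76, 7.42 and 6.76 to 4.82, 5.56 and 4.25 CPM (1.42-fold, edgeR adjusted p = 9.5e-04). Eif2ak2, the gene of PKR, the kinase that stops translation on double-stranded RNA, fell from 67.8, 65.3 and 68.6 to 53.9, 52.8 and 53.3 CPM (1.26-fold, edgeR adjusted p = 3.48e-07). None of these 4 genes had overlapping groups. Ifit2 rose as well (17.5, 17.2 and 17.2 to 29.0, 27.1 and 27.7 CPM, 1.62-fold, edgeR adjusted p = 9.1e-09). Ddx58 rose 1.20-fold, but on protein-coding transcripts alone its log2 change was -0.09 (adjusted p = 0.273).

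In UN-SCC679 the same hairpin left the members' median at -0.01 (all 14271 genes 0.01). Of 43 tested 16 were higher (37.2%, background 31.8%) and 15 lower (34.9%, background 32%), and groups did not overlap for 31 (background 68.1%). The roles divided: 3 of 4 transcription factors and 4 of 6 enzymes were lower with none higher, 3 of 4 receptor chains were higher with none lower, and 7 of 15 effectors were higher with 3 lower. Leukocyte markers summed to between 3.33 and 3.75 TPM in the empty and between 3.74 and 5.36 TPM in the sh3 libraries. Among them Csf1r went from 0.612, 0.420 and 0.354 to 1.34, 1.49 and 1.04 TPM and Cd68 from 2.44, 2.56 and 3.05 to 2.82, 3.31 and 2.08 TPM. Epithelial markers summed to between 543 and 567 and between 341 and 358 TPM, and fibroblast markers to between 3883 and 3994 and between 3117 and 3175 TPM. Most of the fibroblast sum was Col1a2 (means of 3706 and 2727 TPM). Of 5 fibroblast markers tested 4 were called higher with sh3 and 1 lower, and of 4 epithelial markers 2 were higher and 2 lower. Their part in the members' changes was not tested.

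Irf9 fell from 18.7, 19.1 and 20.9 to 12.3, 13.7 and 12.6 CPM (1.52-fold, log2 -0.60, SE 0.065, edgeR adjusted p = 6.87e-06). Irf1, the factor induced through GAS sites, fell from 99.7, 100.1 and 99.1 to 73.0, 71.9 and 67.1 CPM (1.41-fold, log2 -0.50, SE 0.033, edgeR adjusted p = 8.8e-08). Stat2 was at 47.3, 46.5 and 48.9 CPM against 46.8, 46.9 and 45.9 CPM (log2 -0.03, SE 0.032, edgeR adjusted p = 0.428) and was not called. In both lines Irf9 was thus lower with sh3. Irf7 was also called lower (1.21-fold, edgeR adjusted p = 0.0284), but the call was lost under 5 other settings (adjusted p up to 0.423) and without any 1 of 3 libraries, empty TPLKO replicates 1 and 2 and sh3 replicate 2 (adjusted p 0.0664 to 0.0935).

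Bst2 fell from 211, 208 and 205 to 95.8, 94.1 and 89.6 CPM (2.23-fold, log2 -1.16, SE 0.028, edgeR adjusted p = 1.95e-11), a change of the same size as in LLC and in the other direction. Irgm1, a regulator of the other immunity-related GTPases, fell from 97.8, 100.9 and 102.7 to 67.9, 64.0 and 64.6 CPM (1.53-fold, edgeR adjusted p = 7.6e-09). Samhd1 fell from 148, 149 and 149 to 103, 102 and 108 CPM (1.43-fold, edgeR adjusted p = 8.28e-09). Usp18, the protease that removes ISG15 and damps the type I receptor, fell from 9.37, 9.11 and 7.94 to 6.51, 6.42 and 5.34 CPM (1.45-fold, edgeR adjusted p = 6.63e-04). All 4 had empty and sh3 libraries well apart. Chromosome 8, where Bst2 lies, had a median log2 change over its genes of -0.19 here.

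Ifit1 rose from 2.16, 2.38 and 2.09 to 6.42, 5.46 and 6.61 CPM (2.78-fold, log2 1.48, SE 0.12, edgeR adjusted p = 6.84e-07). Oasl1, an OAS-like protein gene known to restrain Irf7 translation, rose from 0.702, 0.868 and 0.731 to 2.89, 3.37 and 2.59 CPM (3.83-fold, log2 1.94, SE 0.20, edgeR adjusted p = 4.52e-06). Ifi44 rose from 15.7, 15.9 and 17.8 to 26.6, 28.2 and 27.7 CPM (1.67-fold, edgeR adjusted p = 2.68e-07). Every sh3 library was above every empty one for these 3 effectors.

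Rsad2 encodes viperin, which makes a chain-terminating nucleotide from CTP, and Cmpk2 encodes a nucleotide kinase that supplies such precursors. Rsad2 was named after its values were seen. It had 15 counts in the 3 empty libraries and 142 with sh3, at 0.170, 0.0668 and 0.126 CPM against 1.04, 1.19 and 1.10 CPM (9.08-fold, log2 3.18, SE 0.38, edgeR adjusted p = 1.58e-05). Cmpk2 was at 0.678, 0.957 and 0.706 CPM against 1.29, 1.36 and 2.18 CPM (2.05-fold, edgeR adjusted p = 0.00723). In LLC both moved the other way, Rsad2 from 0.864, 0.821 and 0.621 to 0.111, 0.409 and 0.272 CPM (98 to 36 counts, 2.88-fold lower, edgeR adjusted p = 0.00552) and Cmpk2 from 0.487, 0.448 and 0.382 to 0.0443, 0.0646 and 0.136 CPM (56 to 11 counts, 5.25-fold lower, edgeR adjusted p = 6.94e-04). The genes lie head to head on chromosome 12 with 12.8 kb between them, and groups did not overlap for either gene in either line. On protein-coding transcripts alone Cmpk2 had 22 counts in empty LLC and 11 with sh3, too few for the test.

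Receptor chains were higher here too. Ifngr2 rose from 14.2, 12.7 and 12.95 to 23.4, 21.7 and 23.1 CPM (1.71-fold, log2 0.77, SE 0.060, edgeR adjusted p = 3.86e-07) and Ifnar2 from 10.95, 11.02 and 10.3 to 16.8, 17.2 and 16.4 CPM (1.56-fold, edgeR adjusted p = 1.88e-06). Ifnar1 rose 1.18-fold (edgeR adjusted p = 5.35e-05). These 3 genes are neighbours on chromosome 16, where Ifnar2 and Ifnar1 are 79.6 kb apart and Ifnar1 and Ifngr2 39.6 kb. The genes of that chromosome had a median log2 change of 0.16, and with it removed Ifnar1 was not called (log2 0.08, adjusted p = 0.0565). Ifngr1, on chromosome 10, was at 44.7, 44.1 and 44.5 CPM against 42.9, 42.5 and 42.8 CPM (edgeR adjusted p = 0.122).

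**Figure D3:**
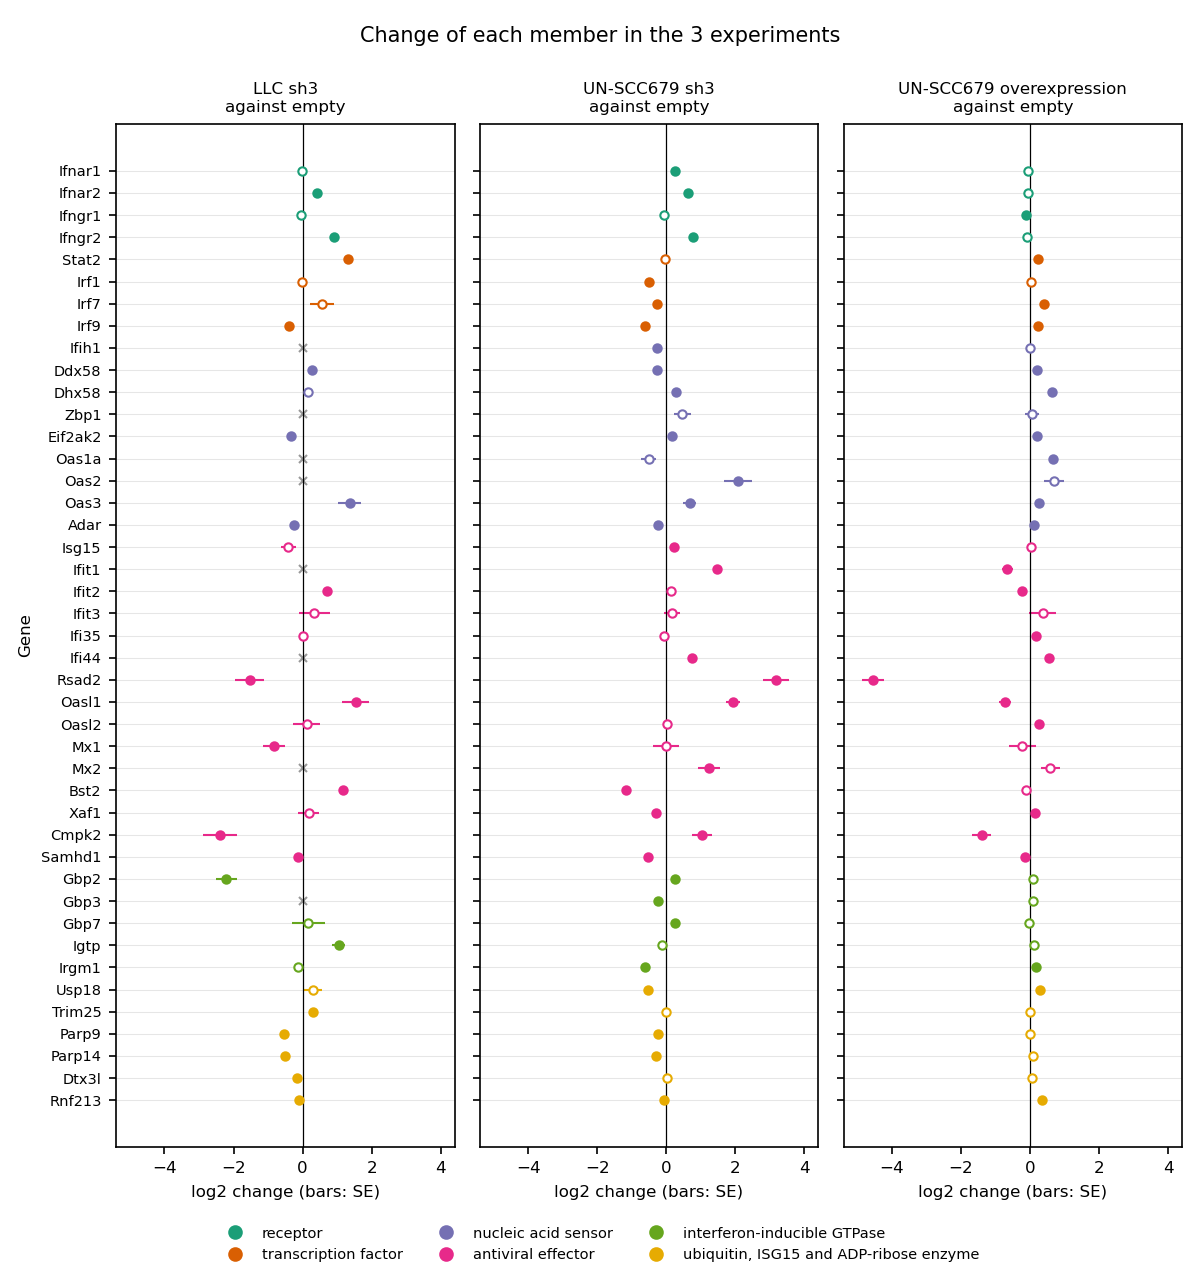
Log2 change of each member with sh3 in each line and with overexpression, each against the empty vector, with bars of 1 SE, rows coloured by role, filled points called at an adjusted p under 0.05, open points not called and crosses not tested. Bst2 and Rsad2 lie on opposite sides of 0 in LLC and UN-SCC679 with sh3, and Rsad2 is the member farthest from 0 with overexpression.

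The difference between the hairpin's effects in the lines was tested as an interaction over 12 libraries. The effect was called more positive in LLC for 12 of 43 members (27.9%, background 28.1%) and more negative for 8 (18.6%, background 31.9%). Bst2 differed by a log2 of 2.32 (SE 0.070, edgeR adjusted p = 1.26e-13) and Stat2 by 1.35 (SE 0.059, edgeR adjusted p = 8.85e-12). Ddx58 (0.52, edgeR adjusted p = 3.39e-08) and Samhd1 (0.38, edgeR adjusted p = 1.19e-07) followed. In the other direction were Rsad2 (-4.71, SE 0.61, edgeR adjusted p = 4.88e-06), Cmpk2 (-3.43, SE 0.55, edgeR adjusted p = 4.73e-05), Gbp2 (-2.45, SE 0.21, edgeR adjusted p = 4.29e-08) and Eif2ak2 (-0.50, SE 0.036, edgeR adjusted p = 4.1e-09). On protein-coding transcripts alone the change of Ddx58 in LLC turned. With chromosome medians removed the change of Eif2ak2 in UN-SCC679 turned. The interaction was not repeated under either setting. For Irf9 the difference was 0.20 (SE 0.11, edgeR adjusted p = 0.121) and for Ifngr2 0.14 (SE 0.071, edgeR adjusted p = 0.108), so a difference between the lines was not detected for these genes. Dstyk itself fell 1.85-fold in LLC and 1.41-fold in UN-SCC679.

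With the DSTYK construct in UN-SCC679, changes of members were more often upward. Of 43 members tested 16 were higher (37.2%, background 14.6%) and 7 lower (16.3%, background 15.2%). Their median log2 change was 0.09, against 0.00256 for all 13975 genes tested, and groups did not overlap for 31 (background 46%). Among transcription factors 3 of 4 were higher, among sensors 6 of 9, among enzymes 2 of 6, each with none lower, and among effectors 4 were higher and 6 lower of 15. Of the 5 GTPase genes 1 was higher, and of the 4 receptor genes 1 was lower. Without the first empty pLENTI6 library the counts were again 16 and 7, with Ifngr1 no longer called, Bst2 called in its place and the other 22 calls kept. Without the second overexpression library 11 were higher. Epithelial markers summed to between 1002 and 1041 TPM in the empty and between 817 and 858 TPM in the other libraries, which was not tested as a source of these changes.

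Oas1a, a 2-5A synthetase gene, rose from 3.02, 3.25 and 3.27 to 5.46, 5.05 and 4.71 CPM (1.59-fold, log2 0.67, SE 0.088, edgeR adjusted p = 4.24e-04). Dhx58, the gene of LGP2, a regulator of RIG-I and MDA5, rose from 8.07, 8.01 and 8.02 to 11.96, 12.4 and 12.8 CPM (1.54-fold, log2 0.62, SE 0.050, edgeR adjusted p = 1.94e-05). Ddx58 rose from 76.9, 80.7 and 80.4 to 87.5, 92.4 and 92.2 CPM (1.14-fold, edgeR adjusted p = 0.00195). The groups of each of these sensors were apart, while Ifih1 was at 12.2, 12.6 and 12.4 CPM against 12.5, 13 and 11.8 CPM (log2 0.01, SE 0.051, edgeR adjusted p = 0.931).

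Irf7, the factor that amplifies type I interferon production, rose from 5.65, 5.26 and 5.63 to 6.81, 7.25 and 8.01 CPM (1.33-fold, log2 0.42, SE 0.077, edgeR adjusted p = 0.00315). Irf9 rose from 17.1, 16.7 and 17.2 to 20.2, 18.9 and 20.1 CPM (1.16-fold, edgeR adjusted p = 0.00603) and Stat2 from 42.1, 44.97 and 45.4 to 51.7, 50.6 and 51.7 CPM (1.16-fold, edgeR adjusted p = 0.00121). None of the 3 factors had overlapping groups, and the changes were well under 2-fold. With the length offset and with limma on log2(TPM + 1) Stat2 was not called (adjusted p = 0.0652 and 0.0837).

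Ifi44 rose from 4.98, 5.52 and 5.27 to 7.84, 8.05 and 7.16 CPM (1.46-fold, edgeR adjusted p = 4.15e-04). Rnf213 was at 102, 136 and 142 CPM in the empty libraries, the first of them the library that stands apart, and at 151, 160 and 173 CPM with the construct (1.27-fold, log2 0.35, SE 0.10, edgeR adjusted p = 0.0291). Without that library the log2 change was 0.22 (adjusted p = 0.00304), without overexpression replicate 2 or 3 the adjusted p was 0.0806 and 0.117, and DESeq2 gave an adjusted p of 0.0771.

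The falls were led by Rsad2 (named after its values were seen), at 1.497, 1.90 and 1.66 CPM in the empty libraries and 0.0448, 0.0469 and 0.118 CPM with the construct. Its counts went from 221 to 9 (23.4-fold lower, log2 -4.55, SE 0.31, edgeR adjusted p = 7.45e-06). Cmpk2 went from 0.736, 0.829 and 1.07 to 0.448, 0.258 and 0.283 CPM (2.64-fold lower, edgeR adjusted p = 0.00439). For both genes every library with the construct was below every empty one. These were the members lower by over 2-fold, 2 of 43 (4.65%, background 1.72%).

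Ifit1 fell from 2.55, 2.18 and 2.16 to 1.72, 1.41 and 1.23 CPM (1.58-fold, log2 -0.66, SE 0.16, edgeR adjusted p = 0.0117), Oasl1 from 1.42, 1.27 and 1.20 to 0.761, 0.775 and 0.801 CPM (1.66-fold, edgeR adjusted p = 0.00928) and Ifit2 from 20.6, 22.1 and 21.3 to 18.4, 17.95 and 18.4 CPM (1.17-fold, edgeR adjusted p = 0.00401). Samhd1 fell from 135, 137 and 137 to 122.5, 123 and 119.7 CPM (1.12-fold, edgeR adjusted p = 0.00121). All 4 kept their groups apart. With limma on log2(TPM + 1) Ifit2 (adjusted p = 0.10) and Samhd1 (adjusted p = 0.059) were not called. Ifngr1 was called lower at the edge (log2 -0.12, edgeR adjusted p = 0.0441) and lost the call under 6 other settings and without any 1 of 5 of the 6 libraries (adjusted p up to 0.212). Bst2 was at 163, 148 and 144.5 CPM against 142, 136 and 138 CPM and was not called (edgeR adjusted p = 0.0548), while without the first empty pLENTI6 library it was called lower (log2 -0.07, adjusted p = 0.0293).

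**Figure D4:**
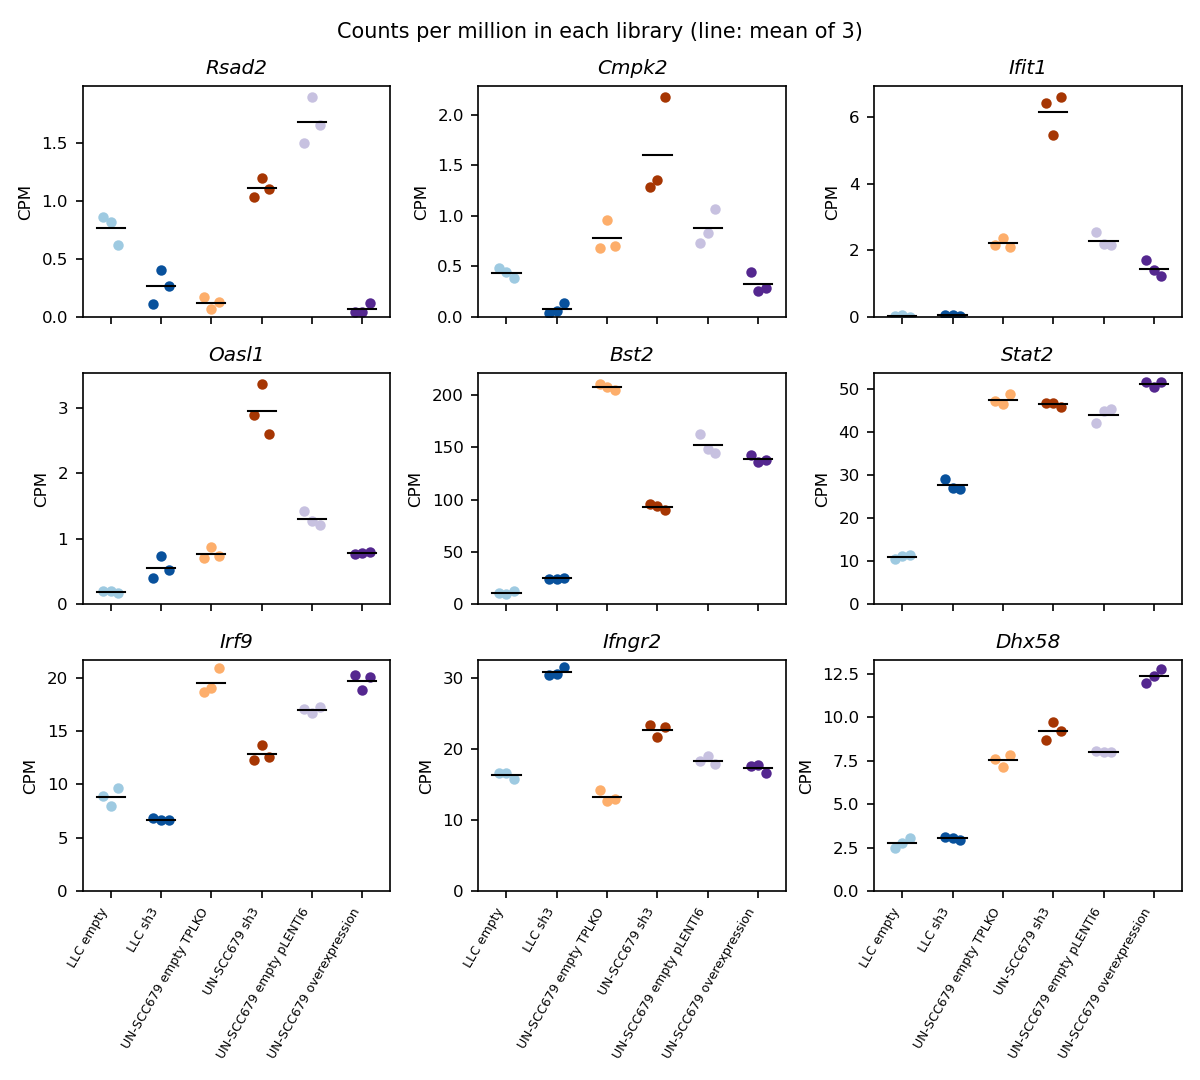
CPM of 9 members in each of the 18 libraries, with a black line at the mean of the 3 libraries of a group and each vertical axis from 0. Rsad2 and Cmpk2 are higher with sh3 and lower with overexpression in UN-SCC679 and lower with sh3 in LLC, and Rsad2 is higher with empty pLENTI6 than with empty TPLKO.

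The hairpin's and the construct's effects in UN-SCC679 come from separate libraries, and their difference was tested over 12 libraries. For 10 members the hairpin's effect was the more positive (23.3%, background 26.1%) and for 21 the more negative (48.8%, background 25.8%), with a median log2 difference of -0.19 against 0.01 for all 14975 genes tested. Transcription factors had the more negative effect in 4 of 4, sensors in 5 of 9 and enzymes in 4 of 6. Without the first empty pLENTI6 library the counts were 9 and 19, as Igtp, Oas2 and Oasl2 were not called. The difference was 7.73 for Rsad2 (SE 0.48, edgeR adjusted p = 7.12e-09), 2.67 for Oasl1 (SE 0.24, edgeR adjusted p = 3.8e-07), 2.13 for Ifit1 (SE 0.20, edgeR adjusted p = 4.02e-07) and 0.86 for Ifngr2 (SE 0.073, edgeR adjusted p = 1.67e-07). It was -1.03 for Bst2 (SE 0.055, edgeR adjusted p = 1.53e-09), -0.80 for Irgm1 (SE 0.044, edgeR adjusted p = 1.8e-09), -0.53 for Irf1 (SE 0.046, edgeR adjusted p = 1.87e-07) and -0.45 for Ddx58 (SE 0.040, edgeR adjusted p = 2.66e-07).

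Set side by side over the 3 experiments, which share no library, Oas3 was called higher in all 3 and Samhd1 lower in all 3. The share of all genes with this or any other pattern over the 3 experiments was not counted. The patterns named here and below are therefore descriptions without a background. Oas3 was at 1.82, 2.43 and 1.89 CPM against 3.99, 2.65 and 3.21 CPM with sh3 in UN-SCC679 (1.60-fold, edgeR adjusted p = 0.00783) and at 5.42, 5.70 and 5.70 CPM against 6.97, 7.02 and 6.15 CPM with the construct (1.20-fold, edgeR adjusted p = 0.0233). The last call was lost without empty pLENTI6 replicate 2, overexpression replicate 1 or overexpression replicate 2 (adjusted p 0.0518 to 0.0921), with DESeq2 (0.105), with the chromosome median removed (0.0505) and with all 18 libraries in 1 fit (0.342). Samhd1 in LLC was at 117, 111 and 113 CPM against 103, 104 and 102 CPM (1.10-fold lower, edgeR adjusted p = 2.58e-04).

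Lower with sh3 in both lines and higher with the construct, again without a share over all genes, were Irf9, Rnf213 and Adar. Adar encodes the enzyme that edits adenosines in double-stranded RNA and so keeps self RNA from the sensors. Adar was at 51.8, 53.9 and 51.8 CPM against 43.5, 44.2 and 44.2 CPM with sh3 in LLC (1.19-fold lower, edgeR adjusted p = 9.16e-06) and at 117, 119 and 125 CPM against 103, 102 and 100.3 CPM in UN-SCC679 (1.19-fold lower, edgeR adjusted p = 9.39e-06). With the construct Adar was at 96.6, 104.9 and 103.6 CPM against 113, 108 and 110.3 CPM (1.08-fold higher, edgeR adjusted p = 0.0307), a call lost without any 1 of the 3 overexpression libraries (adjusted p 0.0603 to 0.126). Rnf213 in LLC was at 293, 308 and 302 CPM against 279, 283 and 276 CPM with sh3 (1.08-fold lower, edgeR adjusted p = 3.2e-04), and the call was lost with the chromosome median removed (adjusted p = 0.883) and with all 18 libraries in 1 fit (adjusted p = 0.201). Its call with sh3 in UN-SCC679 was small (log2 -0.08, edgeR adjusted p = 0.028) and turned with the chromosome median removed (log2 0.01, adjusted p = 0.761). That call was also lost under 6 other settings (adjusted p 0.0555 to 0.617) and without any 1 of 4 libraries (empty TPLKO replicates 2 and 3, sh3 replicates 2 and 3, adjusted p 0.0573 to 0.104). Oasl1 showed the mirrored order, higher with sh3 in both lines (0.199, 0.199 and 0.167 against 0.398, 0.733 and 0.52 CPM in LLC, 2.90-fold, edgeR adjusted p = 0.00361) and lower with the construct, and with the length offset the LLC call was lost (adjusted p = 0.0606).

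The empty vectors of UN-SCC679 were compared because neither carries a construct aimed at Dstyk, though vector, doxycycline treatment and the deposited table they came in cannot be told apart. Dstyk itself was 1.20-fold lower with empty pLENTI6 (30.5 ± 1.46 against 37.1 ± 1.04 CPM, SD, n = 3, edgeR adjusted p = 4.65e-04). The libraries with the DSTYK construct (37.2 ± 0.696 CPM) were thus at the level of empty TPLKO. Relative to empty TPLKO, empty pLENTI6 had 22 of 42 members lower (52.4%, background 33.3%) and 7 higher (16.7%, background 35.4%). The median log2 difference was -0.19, against 0.01 for all 14080 genes tested, and groups did not overlap for 33 (background 73.2%). All 5 GTPase genes and all 6 enzyme genes were lower. Fibroblast markers summed to between 1356 and 1464 TPM with empty pLENTI6, against between 3883 and 3994 TPM, and epithelial markers to between 1002 and 1041 against between 543 and 567 TPM, and their part was not tested. Of 4 fibroblast markers tested 3 were lower with empty pLENTI6 and 1 higher. Without the first empty pLENTI6 library all 29 calls were kept.

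Ifi44 was at 4.98, 5.52 and 5.27 CPM with empty pLENTI6 against 15.7, 15.9 and 17.8 CPM with empty TPLKO (3.08-fold lower, log2 -1.62, SE 0.075, edgeR adjusted p = 4.77e-08). Ifih1 was 1.98-fold (edgeR adjusted p = 1.98e-07) and Ddx58 1.75-fold lower (edgeR adjusted p = 1.33e-08), each without overlap. Both are RNA sensors of the same family. Rsad2 was 14-fold higher with empty pLENTI6 (221 against 15 counts, edgeR adjusted p = 2.74e-06), Oas3 2.77-fold (edgeR adjusted p = 4.48e-06) and Ifit2 1.51-fold (edgeR adjusted p = 9.58e-06). For Rsad2 the gap between the empty vectors stands beside the 9.08-fold change with sh3, and both comparisons use the empty TPLKO libraries. Oasl1 was called higher (1.71-fold, edgeR adjusted p = 0.00694), but not with the length offset (log2 0.25, adjusted p = 0.48).

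Of the transcripts with at least 5 counts in every TPLKO library of UN-SCC679, 404 were at 0 in all 6 pLENTI6 libraries, 166 of them protein-coding, and 194 the other way round. One of the 404 belongs to a member: Ifngr2-203, a processed transcript, was at 0 in all 6 pLENTI6 libraries and between 2.46 and 6.28 TPM in the TPLKO libraries. Ifngr2 as a gene was higher with empty pLENTI6 by summed counts (1.40-fold, edgeR adjusted p = 4.08e-05) and not with the length offset (log2 -0.07, adjusted p = 0.407). Comparisons within a vector do not cross this gap.

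Transcripts of Ifnar2 differed in their response to the hairpin in LLC, given here without a test. The 1099-base transcript Ifnar2-203, which ends at position 91394040 of chromosome 16 (GRCm38), went from 10.3, 13.1 and 10.6 TPM to 28.4, 32.4 and 29.9 TPM. The 3047-base Ifnar2-201, which ends at 91405589, went from 4.38, 4.94 and 3.75 TPM to 1.87, 1.30 and 1.88 TPM. Both moved without overlap and in opposite directions, while the gene as a whole rose 1.33-fold (edgeR adjusted p = 5.07e-06). In UN-SCC679 they went from 9.08, 8.5 and 7.57 TPM to 13.5, 14.6 and 14.4 TPM and from 1.95, 1.96 and 2.20 TPM to 2.66, 3.09 and 2.04 TPM.

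Members that lie side by side did not always move together. Ifit2, Ifit3 and Ifit1 lie in this order on chromosome 19, 7.1 kb and 52.1 kb apart. With sh3 in UN-SCC679 Ifit1 was called higher, Ifit2 went from 15.3, 13.5 and 14.1 to 16.1, 14.9 and 16.1 CPM (edgeR adjusted p = 0.0986) and Ifit3 from 1.11, 1.36 and 1.13 to 1.33, 1.17 and 1.57 CPM (edgeR adjusted p = 0.54). Oas2 and Oas3, 3.2 kb apart on chromosome 5, were both higher with sh3 in UN-SCC679, Oas2 from 19 to 83 counts (4.24-fold, edgeR adjusted p = 8.45e-04). Parp9 and Dtx3l overlap by 682 bases on opposite strands, and no source used here says whether counting used the strand. Oas1a, Ifit1, Ifit3 and the Gbp genes have near-identical relatives, so their shared reads make these counts uncertain.

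Of 88 further genes of the pathway, the 10 interferon genes were at or near 0 in every library (Ifnb1 at most 0.111 TPM, Ifna1, Ifna2, Ifna4 and Ifna5 at 0) and were not tested. Among the other 78 genes, the LLC hairpin had 27 higher and 24 lower of 68 tested (39.7% and 35.3%, background 36.2% and 36.4%), shares near the background. The UN-SCC679 hairpin had 39 higher and 17 lower of 77 (50.6% and 22.1%, background 31.8% and 32%). The construct had 25 higher and 6 lower of 75 (33.3% and 8%, background 14.6% and 15.2%). The comparison of lines had 29 higher and 40 lower of 76 (38.2% and 52.6%, background 40.9% and 42%) and that of the empty vectors 31 higher and 24 lower of 75 (41.3% and 32%, background 35.4% and 33.3%). With the construct 16 of 36 further interferon-stimulated genes were higher and 2 lower (44.4% and 5.56%), and of 9 nucleases and RNA-limiting enzymes none was called. In the comparison of lines 28 of those 36 were lower in LLC and 7 higher (77.8% and 19.4%). Without the first empty pLENTI6 library 30 of the 31 calls with the construct and 53 of the 55 between the empty vectors were kept.

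Of 17 tested adaptors, kinases and factors of sensing, 7 were higher and 8 lower in LLC. Sting1, the adaptor of cytosolic DNA sensing, was 22.3-fold higher in LLC (89.0 against 3.73 TPM, edgeR adjusted p = 1.54e-14) and the DNA sensor gene Aim2 214-fold (47.4 against 0.147 TPM, edgeR adjusted p = 3.21e-13). Cgas, whose product makes the messenger that activates STING, was at 0.108 TPM in LLC and 14.7 TPM in UN-SCC679, and the DNA sensor gene Ifi204 was 1.29-fold lower in LLC (edgeR adjusted p = 1.48e-04). Parp12 was 10.4-fold and Ifi27 7.62-fold lower in LLC. Socs3, a feedback inhibitor of cytokine receptors, was 4.60-fold higher in LLC (edgeR adjusted p = 4.07e-11). This holds against empty TPLKO only. Mean Socs3 was 31.2 CPM in empty LLC, and in UN-SCC679 6.73 CPM with empty TPLKO and 29.2 CPM with empty pLENTI6.

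With sh3 in LLC the adaptor genes Myd88 and Traf6 fell 1.90-fold and 1.85-fold (edgeR adjusted p = 8.41e-10 and 8.69e-10), Dnase2a, a lysosomal nuclease gene, rose 2.08-fold (edgeR adjusted p = 9.67e-11), and the membrane restriction factor genes Ifitm3 and Ifitm2 went 1.60-fold up and 1.55-fold down (edgeR adjusted p = 2.77e-12 and 3.03e-11). With sh3 in UN-SCC679 Ifitm3 and Ifitm2 rose 1.86-fold and 1.74-fold (edgeR adjusted p = 3.1e-11 and 3.26e-09), Cgas 1.52-fold (edgeR adjusted p = 2.51e-07), Socs3 2.25-fold (edgeR adjusted p = 5.63e-08) and the phosphatase gene Ptpn6 5.11-fold (edgeR adjusted p = 8.88e-09). With the construct Tlr3, the endosomal sensor of double-stranded RNA, rose 1.46-fold (edgeR adjusted p = 7.14e-04, 1.37-fold without the first empty library) and Sp100 1.26-fold (edgeR adjusted p = 1.54e-04), while Ifitm1 fell 3.07-fold (edgeR adjusted p = 6.19e-06). Between the empty vectors of UN-SCC679, Ifitm3 was 3.52-fold and Socs3 4.4-fold higher with pLENTI6, and Tlr3 1.96-fold lower (edgeR adjusted p = 4.14e-10, 4.32e-09 and 2.36e-06).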

How the data were processed

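RNA of 18 libraries was sequenced for 75 bases after a stranded Illumina mRNA kit, per the labels' protocols. The authors deposited estimated counts for each transcript from kallisto on mm10, per the submitters' processing notes, and these share reads among near-identical transcripts. Of 118489 transcripts, 116816 matched GENCODE M21 (GRCm38). The 1673 others, 0.515% to 0.593% of the counts, stayed out. Counts were summed per gene, rounded and tested in R 4.3.3 with edgeR 4.0.16 (TMM scaling, default filter of 10 counts and 15 in all, quasi-likelihood test, Benjamini-Hochberg adjustment over all tested genes). Each comparison used its own 6 libraries, and differences between effects used 12. Standard errors come from the F statistic, CPM values are on 1 TMM scale over all libraries, and TPM values were recomputed from the counts and the deposited effective lengths. The fits were tested on simulated data. Groups come from the titles, since both arms of an experiment have 1 phenotype label.

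The members, roles and pathway lists were chosen with earlier results of these data known. Genes named are, with a mean of at least 1 CPM over the 6 libraries, the 5 called members with the largest change each way for each altered arm, 4 each way between lines, 3 between empty vectors, up to 4 each way by adjusted p for differences between effects, members called in all 3 experiments, those near 0, and 2 genes per further list. Alternatives were DESeq2 1.42.0, other filters and scaling, a length offset, limma 3.58.1 on log2(TPM + 1), removal of chromosome medians, a joint fit, a replicate block, leaving out each library, and, added after seeing the data, protein-coding transcripts alone. For differences between effects only library size alone, no filter, the replicate block and leaving out each library were used.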

Additional observations from a re-analysis of the deposited data

Results flagged for a closer look

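For 20 of 43 members (46.5%) the effect of the hairpin differed between LLC and UN-SCC679 in the interaction test (edgeR's quasi-likelihood test with Benjamini-Hochberg adjustment over all tested genes). The effect was more positive in LLC for 27.9% of members and more negative for 18.6%, against 28.1% and 31.9% of all 15399 genes tested. This is a matter of sign and not of the size of the change in either line. Members were thus not called more often than genes in general. Each value here is the log2 change in LLC minus that in UN-SCC679. It was above 0 for Bst2 (2.32), Stat2 (1.35), Ifi44 (1.35), Igtp (1.17), Irf7 (0.85), Usp18 (0.83), Ifit2 (0.56), Ddx58 (0.52), Irgm1 (0.49), Irf1 (0.46), Samhd1 (0.38) and Trim25 (0.30). It was below 0 for Rsad2 (-4.71), Cmpk2 (-3.43), Gbp2 (-2.45), Isg15 (-0.65), Eif2ak2 (-0.50), Parp9 (-0.33), Ifnar1 (-0.27) and Ifnar2 (-0.23). The interaction was not repeated on protein-coding transcripts alone, where the change of Ddx58 in LLC turned. Nor was it repeated with chromosome medians removed, where the change of Eif2ak2 in UN-SCC679 turned. Ifi44 had 7 counts in the empty LLC libraries, and its call was lost in 8 of the 12 fits that leave out 1 library (adjusted p 0.0513 to 0.212) and with the replicate block (adjusted p = 0.0724). Those libraries were empty LLC replicates 1 and 3, LLC sh3 replicates 1 and 3, empty TPLKO replicate 2 and all 3 sh3 replicates of UN-SCC679. Leaving out empty LLC replicate 2 or 3 gave 2.51 (adjusted p = 0.00504) and 0.79 (adjusted p = 0.212). Ifnar2 lost the call without empty LLC replicate 1 or empty TPLKO replicate 1 or 3 of UN-SCC679 (adjusted p 0.0536 to 0.113). By mean TPM Ifnar2 went from 18.8 to 34.6 in LLC and from 11.8 to 18.8 in UN-SCC679. The larger rise was then in LLC, so the sign of this difference holds for summed counts only. The interaction was not repeated with the length offset.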

How the results depend on the processing

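The counts of members called higher or lower in the 7 comparisons stayed within 1.5 times their value in 217 of 220 repeats under other settings. These repeats include the fits that leave out 1 library. The differences between effects were repeated only with library size alone, no filter, a replicate block and leaving out each library. How they depend on the other settings was not tested. The exceptions were members lower with overexpression (4 with limma on log2(TPM + 1), 7 as reported) and members higher with empty pLENTI6 (4 with the length offset and 4 with limma, 7 as reported). Leaving out 1 library gave, for higher and lower, 10 to 11 and 10 to 12 in LLC with sh3, 14 to 16 and 13 to 15 in UN-SCC679 with sh3, 11 to 16 and 6 to 8 with overexpression, 6 to 7 and 33 to 35 between lines, and 7 to 8 and 22 to 23 between empty vectors. For the difference between lines it gave 11 to 14 and 7 to 9, and for hairpin against overexpression 8 to 11 and 19 to 21. Of the member changes that an alternative turned, removal of chromosome medians gave Eif2ak2 -0.087, Trim25 0.076, Dtx3l -0.14 and Rnf213 0.011 with sh3 in UN-SCC679, and Ifnar1 -0.19, Ifngr1 0.20 and Ifit2 -0.029 between lines. Between empty vectors Ifngr2 was -0.068 with the length offset and -0.098 with limma. Protein-coding transcripts alone gave Ddx58 -0.090 in LLC with sh3 and Oasl2 0.26 between empty vectors, and left Mx2 uncalled with sh3 in UN-SCC679 (log2 0.05, adjusted p = 0.972). Mx2 is annotated as a polymorphic pseudogene, and this setting leaves out any transcript not typed as protein-coding. The median change of members lay on both sides of 0 for the hairpin in LLC (-0.03 to 0.11) and in UN-SCC679 (-0.02 to 0.05). Same-numbered libraries of compared groups correlated between -0.056 and 0.058 in their deviations from the group means. Such deviations include counting noise, so this cannot show whether same-numbered libraries shared a culture or a day. With a replicate block the higher and lower counts were 10 and 11, 16 and 14, 15 and 7, 6 and 34, 7 and 22, 11 and 8, and 9 and 20, in the order above. Depth limits the members under 1 CPM, Rsad2, Cmpk2 and Oas2 among them, whose changes rest on few counts.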
